A study of Drosophila melanogaster with 18 samples.

Results

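Long noncoding RNAs (lncRNAs) are transcripts that are not translated into protein, and the best expressed of them in young adult Drosophila melanogaster are described here. Members were chosen by their summed counts: they are the annotated genes whose symbol begins with lncRNA and whose counts summed to 5000 or more over all 18 libraries, with roX1 and roX2, the RNAs of dosage compensation, left out. Of 1931 lncRNA rows, 24 met this rule, and they held 90.4% of all lncRNA counts, whereas 447 rows had 0 counts in every library. The summed count chose the members, so that their being abundant is a description and not a result. All RNA was from whole w1118 flies, a laboratory strain with white eyes, in 3 groups of 6 libraries: day 2 flies fed 1 µM cycloheximide (CHX), day 2 flies fed vehicle, and flies at day 0 of adulthood. The study's text describes RNA sequencing of flies with and without paraquat, an oxidant, at a later day, which the labels of these libraries do not name, and the groups here follow the labels. CHX blocks the elongation step of protein translation and was mixed into the food. The labels give neither the sex of the flies nor whether the libraries stem from separate cultures, so each p-value refers to variation among these libraries alone, which could be technical. Replicates 1 to 3 of every group have hyphenated library names and replicates 4 to 6 do not, and the meaning of these 2 name series is not labelled.

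lncRNAs work in several ways. Some act in the nucleus, where Hsromega, the heat-inducible transcript of the 93D locus, gathers RNA-binding proteins of the hnRNP family into omega speckles. Others scaffold granules of RNA-binding proteins, as mimi does in fly neurons, or are precursors from which microRNAs are cut. Most genes with a CR number have no known role, and for those only position and level are given.

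Day 2 vehicle flies differed from both other groups in most of these RNAs, as in most features of the genome. Against day 0, 7 of the 24 were higher in vehicle flies and 16 were lower, where 41.8% of all features were higher and 41.1% lower. The largest fitted increases were those of CR44138 and CR43837, which reach the count minimum only through their vehicle libraries. CR43452, with the largest decrease, reaches it only through its CHX and day 0 libraries. Against vehicle, 16 were higher in CHX flies and 7 were lower, where 42% of all features were higher and 41.3% lower. Against day 0, 1 was lower in CHX flies and 0 were higher by edgeR, where 0.552% of all features were lower and 0% higher. Higher and lower refer here to an adjusted p under 0.05 in edgeR's quasi-likelihood test, with Benjamini-Hochberg adjustment over 11051 features.

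Libraries held 24033830 to 38519240 counts in features with CHX, 21495631 to 27217129 with vehicle and 27180491 to 37879190 at day 0. TMM factors, which correct for unequal library composition, were 0.823 to 0.929 with CHX, 1.24 to 1.31 with vehicle and 0.892 to 0.916 at day 0. The vehicle libraries stood apart by tissue markers: 10 muscle genes summed to 735 to 1257 counts per 1000000 (CPM, TMM-scaled), against 46089.7 to 54784 CPM at day 0 and 49013.7 to 58130 CPM with CHX. All 10 muscle genes were lower in vehicle than in day 0 flies, 9 of 10 neuron genes and 9 of 10 eye genes were lower, and all 9 germline and eggshell genes were higher. Fat body and gut lists were mixed. Of 7 fat body genes 1 was higher and 5 lower, and their sums overlapped (1286 to 5907 CPM with vehicle, 2961 to 5934 CPM at day 0). Of 8 gut genes 3 were higher and 2 lower. Median sums with CHX, with vehicle and at day 0 were 644, 203 and 690.1 CPM for the neuron list and 63.8, 4116 and 161 CPM for the germline and eggshell list, with 0 of their genes at 0 counts in any group. The part of these shifts in the lncRNA results was not tested, and in whole flies fewer cells of a type and less RNA per cell cannot be told apart. Testis markers reached 35.2 CPM in day 0 replicate 1 and at most 2.28 CPM in the other 17 libraries, and male accessory gland markers reached at most 1.15 CPM. Without day 0 replicate 1, the same numbers of lncRNAs passed each test as with it.

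The members took 0.364% to 0.426% of the counts with CHX, 0.209% to 0.364% with vehicle and 0.372% to 0.404% at day 0. CR42862 (FBgn0262109; 3L, 224106 to 230964) and CR34335 (FBgn0267910; X, 3545750 to 3546110) held a median of 70.7%, 69.1% and 73.9% of the members' counts in the CHX, vehicle and day 0 groups. Coordinates follow Ensembl's BDGP6.54 annotation. CR34335 is a single exon of 361 bases, and per kilobase of exon shared with no other gene its mean level was 4272 CPM with CHX, 2174 CPM with vehicle and 3892 CPM at day 0. On this scale CR42862, noe and CR40469 came next at day 0, with 328, 202 and 126 CPM per kilobase. Hsromega, the longest member with 21710 exonic bases, had 7.34 CPM per kilobase with CHX, 3.25 CPM with vehicle and 7.30 CPM at day 0. Hsromega contains tandem repeats, and reads that matched several positions are counted in a row of their own and in no feature.

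**Figure D1:**
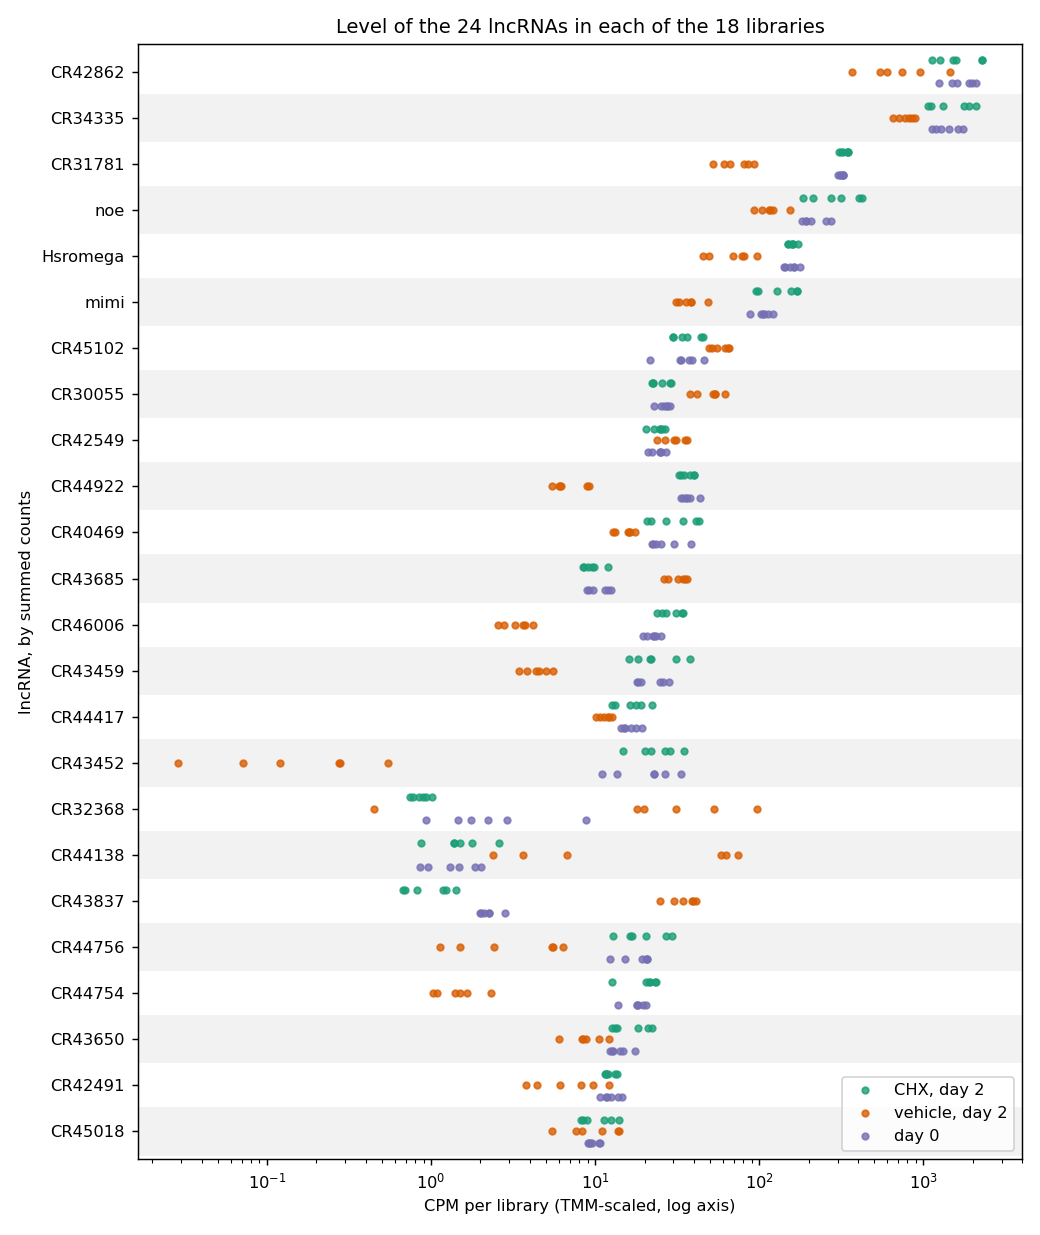
Level of each of the 24 lncRNAs (rows, in order of summed counts) in CPM on a log axis, with 1 point per library and the CHX, vehicle and day 0 libraries from top to bottom within a row. Vehicle libraries lie apart from day 0 libraries in 19 rows, a count that was not made over all features. CR43452 in vehicle flies reaches down to 0.029 CPM.

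The first comparison asks what changed over the first days of adult life with vehicle. All 24 members were tested, and 23 passed, where 82.9% of all features did. Of these, 7 were higher in vehicle flies (41.8% of all features were) and 16 were lower (41.1% of all features). The median log2 fold change was -0.82 over the members and -0.0043 over all features. Among the 1909 lncRNA rows that are not members, here with roX1 and roX2 included, 228 could be tested. Of these, 58 were higher and 101 lower, with a median of -0.44. Overlap of libraries was counted for members only, not for all features. Libraries of the vehicle and day 0 groups did not overlap in 19 members, 5 of them higher and 14 lower in vehicle flies. The split differed with the libraries over which the rule sums. CR43685, CR32368, CR44138, CR43837 and CR45018 would have missed the same count per library without the vehicle libraries, and CR42491 without those of day 0. In the vehicle libraries alone CR44922, CR46006, CR43459, CR43452, CR44756, CR44754 and CR42491 missed it. Lower levels of these in vehicle flies were thus favored by the rule. With the rule applied to the 12 CHX and day 0 libraries, 3 of 20 rows were higher and 17 lower in vehicle flies. With the rule applied to the 6 vehicle libraries, 16 of 26 rows were higher and 9 lower.

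CR43837 is a gene on the X chromosome (FBgn0264385; 6995882 to 6997799) between the gap junction genes Inx7 and Inx2, both of which were lower in vehicle flies. CR43837 had 24.97, 36.6 and 41.0 CPM (lowest, median, highest) in vehicle flies, against 1.98, 2.178 and 2.81 CPM in day 0 flies. No vehicle library came near the day 0 range, and the log2 fold change was 3.96 ± 0.17 (SE), with an adjusted p of 1.75e-13. CR43685 (FBgn0263768; 3R, 7092347 to 7093707), which lies between the tubulin gene alphaTub84B and e(y)2b, had 26.2, 33.1 and 36.2 CPM in vehicle flies and 8.88, 10.6 and 12.5 CPM in day 0 flies. Its log2 fold change was 1.60 ± 0.10 (adjusted p = 2.22e-11), again with no overlap. CR43837 and CR43685 reached the count minimum only through their vehicle libraries, so a difference in this direction was favored by the rule.

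CR44138 and CR32368 varied widely between vehicle libraries. CR44138 (FBgn0264987; 3R, 13376903 to 13377395) had 2.40, 3.62 and 6.71 CPM in the 3 hyphenated vehicle libraries and 58.3, 62.9 and 74.6 CPM in the other 3, against 0.853 to 2.02 CPM in day 0 flies. Every vehicle library exceeded every day 0 library, but by very different amounts, and the fitted log2 fold change was 4.04 ± 0.64 (adjusted p = 1.96e-05). CR32368 (FBgn0052368; 3L, 7915437 to 7915846) had 0.448, 25.4 and 96.5 CPM in vehicle flies, against 0.926, 1.98 and 8.78 CPM in day 0 flies. Vehicle replicate 5 was below every day 0 library, whereas the other 5 vehicle libraries, from 17.9 CPM upward, were above all of them. The log2 fold change was 3.40 ± 0.84 (adjusted p = 0.00136), and between 2.99 and 4.06 with any 1 library left out, but it did not pass in the unhyphenated libraries alone (1.54, adjusted p = 0.248). Both also met the count minimum only through vehicle libraries.

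Smaller increases were seen in 3 abundant members. CR30055 had 38.0, 53.1 and 61.8 CPM in vehicle flies and 22.9, 26.8 and 28.7 CPM in day 0 flies (log2 fold change 0.94 ± 0.11, adjusted p = 1.24e-07). CR45102 (FBgn0266549; X, 3701857 to 3703285) had 49.3, 58.9 and 65.4 CPM in vehicle flies and 21.5, 35.3 and 46.1 CPM in day 0 flies (log2 fold change 0.73 ± 0.15, adjusted p = 0.000186). Neither pair of groups overlapped. CR42549 overlapped between groups, and its log2 fold change of 0.33 ± 0.08 (adjusted p = 0.0012) did not pass with upper quartile factors (0.11, adjusted p = 0.216) or in the hyphenated libraries alone (0.25, adjusted p = 0.139).

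All 6 of the most abundant members by summed counts were lower in vehicle flies, where 41.1% of all features were. The sum runs over 18 libraries, of which 6 are vehicle libraries, so this ranking favored rows that are low in vehicle flies. CR42862 had 366, 670.2 and 1464 CPM in vehicle flies, against 1239.65, 1756 and 2083 CPM in day 0 flies, and vehicle replicate 5 lay within the day 0 range. Its log2 fold change was -1.14 ± 0.28 (adjusted p = 0.00102), which did not pass in the unhyphenated libraries alone (-0.81, adjusted p = 0.0662) or with library sizes in place of TMM factors (-0.63, adjusted p = 0.0547). CR34335 had 651, 798 and 896 CPM in vehicle flies and 1137, 1357 and 1741 CPM in day 0 flies. The groups did not overlap, and the log2 fold change was -0.82 ± 0.16 (adjusted p = 7.04e-05). CR31781 (FBgn0051781; 2L, 16869346 to 16878300) had 51.9, 73.3 and 92.9 CPM in vehicle flies and 302, 319.8 and 326 CPM in day 0 flies. It fell 4.37-fold (log2 fold change -2.13 ± 0.11, adjusted p = 1.13e-12).

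Hsromega (FBgn0001234; 3R, 21296127 to 21317836) was lower in vehicle flies while most genes in a mixed list of omega speckle and heat shock proteins were higher. It had 45.4, 74.1 and 96.9 CPM in vehicle flies and 142.1, 158.7 and 176.8 CPM in day 0 flies. The groups did not overlap, and the log2 fold change was -1.19 ± 0.14 (adjusted p = 1.59e-07). Of these 11 genes, 9 were higher in vehicle flies and 1 was lower, with a median log2 fold change of 0.81. Over all features 41.8% were higher and 41.1% lower. The hnRNP genes Hrb87F (0.93 ± 0.08), Hrb98DE (0.81 ± 0.07) and sqd (0.37 ± 0.09) were among those higher on the log2 scale, and HnRNP-K did not pass (0.13 ± 0.07, adjusted p = 0.0679). Of the heat shock genes, the small chaperone Hsp26 had a log2 fold change of 3.87 ± 0.21 and Hsp23 one of -1.94 ± 0.25. Counts do not separate the nuclear and cytoplasmic transcripts of Hsromega.

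mimi (FBgn0051451; 3R, 23983503 to 23985065), the scaffold of neuronal granules, had 31.2, 37.0 and 49.0 CPM in vehicle flies and 88.4, 106 and 122 CPM in day 0 flies. Every vehicle library was below every day 0 library, and the log2 fold change was -1.51 ± 0.14 (adjusted p = 9.58e-09). The neuron list had a median log2 fold change of -1.82 in the same comparison. The medians of the muscle, eye and fat body lists were below 0 too (-5.52, -0.95 and -0.94). Those of the germline and eggshell list and of the gut list were above it (4.09 and 0.35). A link of mimi to any of these lists was not tested. noe (FBgn0026197; 3L, 17400272 to 17401348) had 93.5, 115 and 154.9 CPM in vehicle flies and 182.6, 199.8 and 275 CPM in day 0 flies. Its groups did not overlap either, with a log2 fold change of -0.88 ± 0.16 (adjusted p = 3.58e-05).

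A microRNA precursor lies wholly inside an exon of 4 members, and all 4 were lower in vehicle flies, where 41.1% of all features were. Hsromega carries mir-4951, CR46006 carries mir-276a, CR43459 carries mir-277 and mir-34, and CR43650 carries mir-8, while mir-9381 starts before mimi and shares 67 bases with it. In flies miR-34 is known from the aging brain, miR-277 from branched-chain amino acid metabolism and miR-8 from growth control by the fat body. The 5 precursors of these 4 hosts had 0 counts in all 18 libraries, as did all genes wholly covered by exons of others, and mature microRNAs were not measured. CR46006 (FBgn0267668; 3L, 10323501 to 10367450) had 2.57, 3.44 and 4.20 CPM in vehicle flies and 19.7, 22.6 and 25.2 CPM in day 0 flies, a 6.66-fold lower level (log2 fold change -2.74 ± 0.13, adjusted p = 3.12e-13). CR43459 (FBgn0263413; 3R, 10093761 to 10101356) had 3.44, 4.45 and 5.57 CPM in vehicle flies and 17.9, 21.9 and 28.2 CPM in day 0 flies. It was 4.96-fold lower (log2 fold change -2.31 ± 0.20, adjusted p = 2.13e-09), and neither host overlapped between groups. Both hosts met the count minimum only through their CHX and day 0 libraries. CR43650 had 6.06, 8.64 and 12.1 CPM in vehicle flies and 12.3, 13.6 and 17.4 CPM in day 0 flies. Its change was smaller, -0.64 ± 0.17 on the log2 scale (adjusted p = 0.00207), and did not pass in the hyphenated libraries alone (-0.41, adjusted p = 0.0656).

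Hosts of small nucleolar RNAs, which guide chemical modification of ribosomal RNA, went the other way as a list. Of 8 such host genes, none of them a member, 7 were tested and 6 were higher in vehicle flies, where 41.8% of all features were. The median log2 fold change of the list was 0.57, beside -0.0043 over all features. The genes of proteins that bind these RNAs were higher in 7 of 8 cases, with a median of 0.92. Nop60B, a gene of this second list, also stands in the host list, where it was matched to the name Uhg6. Among the members CR42491 holds snoRNA:Psi18S-531 in an intron. CR42491 was lower in vehicle flies (log2 fold change -0.82 ± 0.19, adjusted p = 0.000532), and so was its small RNA (-0.67 ± 0.17, adjusted p = 0.00117).

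The steepest loss was that of CR43452 (FBgn0263406; 3R, 20678183 to 20679079). Like CR44754, CR44922 and CR44756 below, CR43452 met the count minimum only through CHX and day 0 libraries, so the rule favored a lower level in vehicle flies. It had 0.029, 0.198 and 0.5498 CPM in vehicle flies, from 1 to 17 counts per library, against 11.1, 22.9 and 33.4 CPM in day 0 flies, from 347 to 898 counts. No library of the groups came close to the other, and the fitted log2 fold change was -6.55 ± 0.38 (adjusted p = 1.38e-11). Its neighbor on the opposite strand, CG4000, was also lower (-5.29 ± 0.27), and its other neighbor, the octopamine receptor gene Oamb, did not pass. CR44754 (FBgn0265967; X, 16901767 to 16912724) had 1.03, 1.45 and 2.32 CPM in vehicle flies and 13.8, 18.2 and 20.5 CPM in day 0 flies, with a log2 fold change of -3.60 ± 0.18 (adjusted p = 8.37e-13). CR44922 (FBgn0266227; 3R, 4375084 to 4377600) had 5.49, 6.15 and 9.22 CPM in vehicle flies and 33.4, 35.9 and 43.3 CPM in day 0 flies, with a log2 fold change of -2.40 ± 0.13 (adjusted p = 2.03e-12). Neither overlapped between groups. CR44756 followed at -2.38 ± 0.35 (adjusted p = 5.99e-06), CR40469 at -0.80 ± 0.17 (adjusted p = 0.000285) and CR44417 at -0.51 ± 0.12 (adjusted p = 0.000578). With library sizes in place of TMM factors the median of all features moved to 0.49 and the split of members to 8 higher and 11 lower, and CR42862, CR40469, CR44417, CR43650 and CR42491 no longer passed, while CR45018 did (0.53, adjusted p = 0.0141).

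The second comparison asks how CHX feeding changed these RNAs at day 2. It shares its vehicle libraries with the first, so the values are given side by side only. Of the 24 members 23 passed, against 83.4% of all features, with 16 higher in CHX flies (42% of all features) and 7 lower (41.3% of all features). Libraries of the groups did not overlap in 17 members, 13 of them higher and 4 lower, again counted for members only. With library sizes in place of TMM factors the split was 13 higher and 8 lower, and the median of all features was -0.53. The median log2 fold change was 0.98 over the members and 0.022 over all features. CR43452 had 14.8, 24.2 and 34.8 CPM in CHX flies and at most 0.5498 CPM in vehicle flies (log2 fold change 6.74 ± 0.38, adjusted p = 7.89e-12). CR44754 had 12.7, 21.4 and 23.6 CPM in CHX flies and at most 2.32 CPM in vehicle flies (3.78 ± 0.18, adjusted p = 3.49e-13). All CHX libraries exceeded all vehicle libraries for both, and the rule favored this direction for both.

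Among the hosts of microRNAs, CR46006 had 23.9, 29.2 and 34.3 CPM in CHX flies (log2 fold change against vehicle 3.12 ± 0.13, adjusted p = 4.33e-14). CR43459 had 16.1, 21.6 and 37.9 CPM (2.43 ± 0.20, adjusted p = 1.03e-09). Hsromega had 150.4, 157.9 and 171 CPM (1.19 ± 0.14, adjusted p = 1.40e-07), above all vehicle libraries. CR43650 had 12.6, 16.0 and 22.4 CPM (0.90 ± 0.17, adjusted p = 9.12e-05). These 4 hosts were higher in CHX than in vehicle flies, where 42% of all features were. CR46006 and CR43459 met the count minimum only through their CHX and day 0 libraries, so the rule favored this direction for both. Of the 11 omega speckle and heat shock genes 9 were lower (median -0.86), where 41.3% of all features were.

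mimi had 96.0, 142 and 169 CPM in CHX flies, above all vehicle libraries, with a log2 fold change of 1.85 ± 0.14 (adjusted p = 4.85e-10). noe had 184, 294 and 424 CPM (1.33 ± 0.16, adjusted p = 1.96e-07) and CR31781 308, 332 and 349.7 CPM (2.19 ± 0.11, adjusted p = 5.95e-13). CR34335 rose by 0.96 ± 0.16 on the log2 scale (adjusted p = 1.31e-05) and CR42862 by 1.10 ± 0.28 (adjusted p = 0.00137). CR42862 did not pass in the unhyphenated libraries alone (0.63, adjusted p = 0.137) or with library sizes (0.55, adjusted p = 0.0907). CR44922 (2.38 ± 0.13), CR44756 (2.54 ± 0.35), CR40469 (1.00 ± 0.17), CR42491 (0.79 ± 0.19) and CR44417 (0.54 ± 0.12) complete the members that were higher. CR44922, CR44756 and CR42491 missed the same count per library in the vehicle libraries alone, so the rule favored this direction for them. CR42491 and CR44417 did not pass in the hyphenated libraries alone (0.29, adjusted p = 0.159, and 0.33, adjusted p = 0.091) or with library sizes (0.24, adjusted p = 0.213, and -0.0196, adjusted p = 0.868).

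The 7 that were lower in CHX flies include the 4 that met the count minimum only through vehicle libraries and passed against day 0. CR43837 had 0.672, 1.00 and 1.43 CPM in CHX flies, against at least 24.97 CPM in vehicle flies (log2 fold change -5.09 ± 0.19, adjusted p = 1.40e-14). CR32368 had 0.747, 0.869 and 1.01 CPM in CHX flies, above vehicle replicate 5 and below the other 5 vehicle libraries (-5.27 ± 0.91, adjusted p = 5.04e-05). CR44138 had 0.863, 1.44 and 2.59 CPM in CHX flies, which overlapped the lowest vehicle library (-3.67 ± 0.64, adjusted p = 5.52e-05). CR43685 had 8.44, 9.28 and 11.96 CPM (-1.75 ± 0.10, adjusted p = 5.83e-12). CR30055 (-1.01 ± 0.11), CR45102 (-0.68 ± 0.15) and CR42549 (-0.32 ± 0.08) were lower by less. CR45102 did not pass in the unhyphenated libraries alone (-0.44, adjusted p = 0.109), nor CR42549 in the hyphenated ones (-0.25, adjusted p = 0.138) or with upper quartile factors (-0.0913, adjusted p = 0.291). CR45018 passed in neither comparison with vehicle (0.03 ± 0.19 for vehicle against day 0, 0.08 ± 0.19 for CHX against vehicle).

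The third comparison sets CHX flies at day 2 beside the day 0 flies from which the experiment started. With edgeR, 1 of the 24 members passed, which was lower in CHX flies, and 0 were higher. Over all features 0.552% passed, 0.552% as lower and 0% as higher. At an unadjusted p under 0.05 the members gave 3 higher and 1 lower, and DESeq2 called 0 higher and 1 lower. The lncRNA that passed was CR43837. Its CHX libraries, up to 1.43 CPM, all lay below the day 0 libraries, from 1.98 CPM, with a log2 fold change of -1.13 ± 0.19 (adjusted p = 0.00434). It did not pass in the hyphenated (-0.96, adjusted p = 0.68) or the unhyphenated libraries alone (-1.31, adjusted p = 0.12), nor with limma-voom (-1.17, adjusted p = 0.1).

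For the others the test does not show equal levels, only that no difference passed at this spread. The log2 fold change of CHX against day 0 flies was 0.45 ± 0.16 for noe (adjusted p = 0.475) and 0.39 ± 0.11 for CR46006 (adjusted p = 0.273). It was -1.87 ± 0.89 for CR32368, whose day 0 libraries ranged widely (adjusted p = 0.999), and 0.37 ± 0.65 for CR44138 (adjusted p = 0.999). The median over the members was 0.08.

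**Figure D2:**
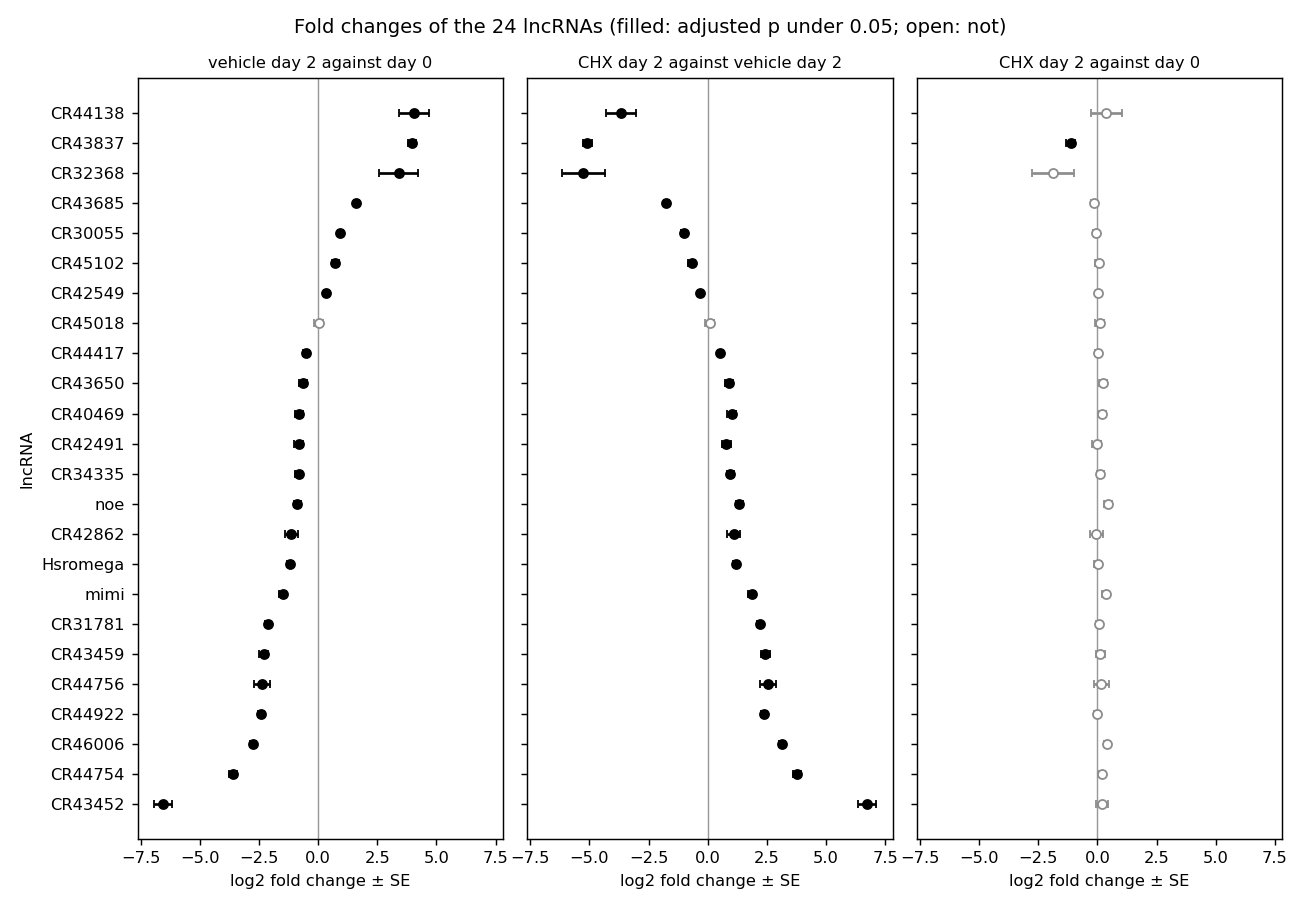
log2 fold change with its standard error for each lncRNA in the 3 comparisons, in the order of the first. In the comparisons with vehicle 23 points are filled, for an adjusted p under 0.05, whereas CR43837 alone is filled for CHX against day 0.

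The 2 name series were compared by testing whether a group difference itself differed between them. For vehicle against day 0, 4 of 24 members passed, against 3.41% of all features, and for CHX against vehicle 3 passed, against 3.57% of all features. For CHX against day 0, 0 members passed in edgeR, where 0% of all features did, with 1 member at an unadjusted p under 0.05. For the 4 members that passed against day 0, the series lay apart in the vehicle libraries. For CR44138 they also lay apart at day 0 (0.853 to 1.31 CPM in hyphenated, 1.48 to 2.02 CPM in unhyphenated libraries). Some members without a difference that passed lay apart by series outside the vehicle group too. CR43685 and CR30055 did so with CHX and at day 0, and CR43452 and CR45102 with CHX. CR44138 averaged 65.2 CPM in unhyphenated and 4.24 CPM in hyphenated vehicle libraries, and the series differed by 3.16 ± 0.49 in the log2 fold change against day 0 (adjusted p = 0.00111) and by -3.88 ± 0.49 in that of CHX against vehicle (adjusted p = 0.000204). CR44756 averaged 5.78 CPM in unhyphenated and 1.69 CPM in hyphenated vehicle libraries. Its series differed by 2.11 ± 0.42 against day 0 (adjusted p = 0.00894) and by -1.84 ± 0.42 for CHX against vehicle (adjusted p = 0.02).

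CR42491 went the opposite way, with a mean of 4.77 CPM in unhyphenated and 10.0 CPM in hyphenated vehicle libraries. The series differed by -1.03 ± 0.26 against day 0 (adjusted p = 0.0371) and by 1.06 ± 0.26 for CHX against vehicle (adjusted p = 0.0318), and CR42491 was lower than at day 0 in the unhyphenated series only by its own test (-1.37, adjusted p = 4.80e-05, beside -0.34, adjusted p = 0.106). Hsromega averaged 85.5 CPM in unhyphenated and 54.7 CPM in hyphenated vehicle libraries, and was lower than at day 0 in both series, by -0.81 and by -1.59 on the log2 scale (difference 0.79 ± 0.19, adjusted p = 0.0276). For CHX against vehicle its difference was -0.69 ± 0.19 and did not pass (adjusted p = 0.0543). CR32368 averaged 12.7 CPM in unhyphenated and 60.1 CPM in hyphenated vehicle libraries, but with so wide a spread that its difference of -3.67 ± 1.24 did not pass (adjusted p = 0.14). The number of members that passed changed with single libraries: for vehicle against day 0 it was 2 without vehicle replicate 2 or without day 0 replicate 4, and for CHX against vehicle it was 1 without vehicle replicate 2, CHX replicate 3 or CHX replicate 5 and 8 without CHX replicate 1. What separates the name series is not in the labels, and its part in these results was not tested.

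**Figure D3:**
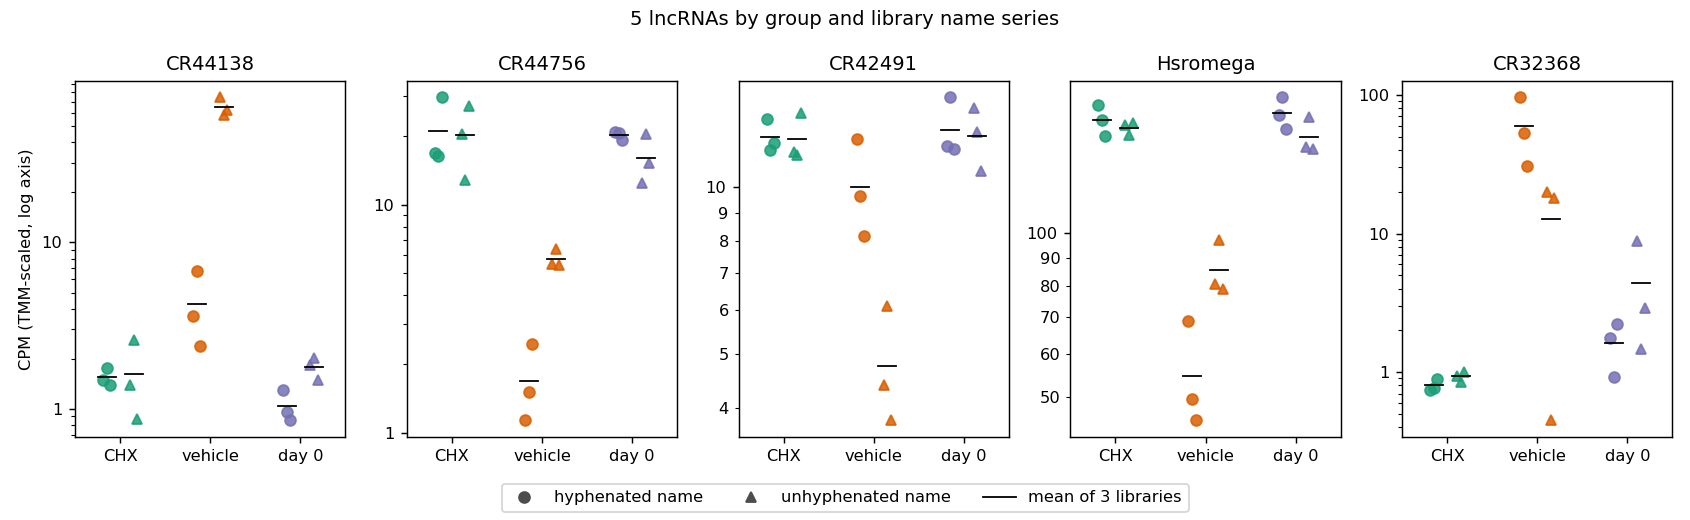
CPM on a log axis of 5 lncRNAs in CHX, vehicle and day 0 libraries, with circles for hyphenated and triangles for unhyphenated library names and bars at the means of 3 libraries. The series lie apart in the vehicle group for all 5, and for CR44138 also at day 0. Vehicle replicate 5 of CR32368 lies at 0.448 CPM, below all other libraries.

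Protein-coding genes overlap 10 of the 24 members. Whether counting used strand was read from the table: all 408 protein-coding and 199 noncoding genes that are wholly covered by exons of other genes on either strand had 0 counts in all libraries. Positions shared between genes therefore gave counts to neither, on either strand, and a member's counts come from its unshared exons. Reads from an intron of a protein-coding gene that runs across a member would still count for the member. Exons are shared with a protein-coding gene in 4 members, always on the same strand. CR42862 shares 246 of 5485 exonic bases with CG33229, CR42549 shares 97 of 1968 with mura, CR42491 shares 377 of 747 with RpL22, a protein of the large ribosomal subunit, and CR45018 shares 1433 of 4000 with IP3K2, an inositol phosphate kinase.

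In these 4 pairs the lncRNA and the protein-coding gene did not move together. CG33229 had 58.9, 75.3 and 89.0 CPM in vehicle flies and 30.5, 34.7 and 47.4 CPM in day 0 flies, and was higher (log2 fold change 1.08 ± 0.14), where CR42862 was lower. RpL22 was higher by 0.36 ± 0.09 (adjusted p = 0.00102), where CR42491 was lower. mura was lower (-0.81 ± 0.17, adjusted p = 0.000253), where CR42549 was higher. IP3K2 (-0.20 ± 0.15, adjusted p = 0.236), like CR45018, did not pass. In all 3 pairs with both genes past the test, the directions were opposite, where 41.8% of all features were higher and 41.1% lower.

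A further 6 members lie within a protein-coding gene without sharing an exon. CR34335 lies on the strand of DIP-alpha, a neuronal cell surface protein, and noe on that of blot, a membrane transporter of the neurotransmitter symporter family. DIP-alpha (3.13 to 4.03 CPM at day 0, where CR34335 had at least 1137 CPM) and blot were higher in vehicle flies (0.55 ± 0.13 and 1.22 ± 0.08), where CR34335 and noe were lower. On the opposite strand, CR44417 and CR44138 moved against Mapmodulin (1.17 ± 0.08) and CG9813 (-1.01 ± 0.14). CR30055 was higher together with Sin3A, a transcriptional corepressor (1.13 ± 0.17), and CR44756 lower together with Gp150 (-1.18 ± 0.15). Of these 6 pairs, all past the test in both genes, 4 moved in opposite directions and 2 in the same. Of 39 pairs of a member and its nearest protein-coding neighbor, 34 passed in both genes for vehicle against day 0, with 21 in the same and 13 in opposite directions. Over all features 41.8% were higher and 41.1% lower, so unrelated genes would often pair in either direction. Directions were not counted over other gene pairs, and a link within the overlapping or neighboring pairs was not tested.

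**Figure D4:**
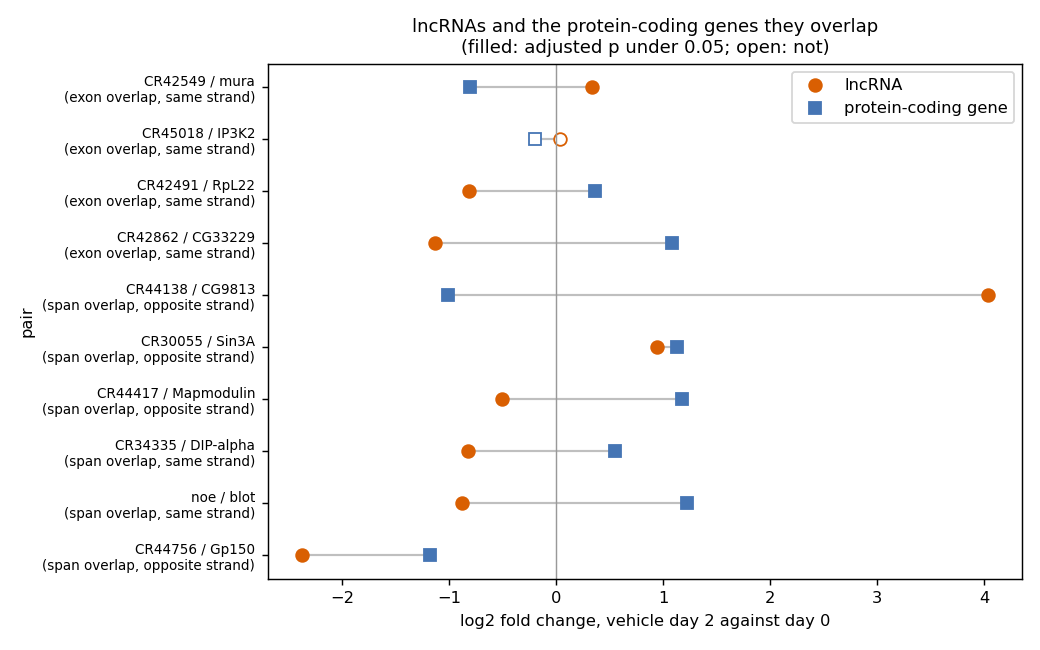
log2 fold change of vehicle day 2 against day 0 for each lncRNA (circles) and the protein-coding gene it overlaps (squares), with pairs that share exons at the top. In 7 of the 9 pairs with 2 filled symbols, for an adjusted p under 0.05, the symbols lie on opposite sides of 0, a count that was not made over other gene pairs.

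Within groups, some members varied between libraries in step. In the CHX group, replicates 1, 5 and 6 held the 3 highest values of CR34335, CR31781, noe, mimi, CR40469, CR46006, CR43650 and CR45018, and the 3 lowest values of CR42862 and CR43459. CR34335 had 1774, 1892 and 2086 CPM in these 3 libraries and 1066 to 1322 CPM in the other 3. CR42862 had 1262, 1133 and 1518 CPM in them and 1593 to 2286 CPM in the other 3. At day 0 the 3 libraries with the most CR34335 (replicates 1, 4 and 6) were likewise the 3 with the least CR42862. In the vehicle group replicate 5 had the most CR42862 and the least CR34335, but the other libraries did not follow that order. These CHX libraries had the 3 lowest TMM factors of their group (0.823 to 0.837, against 0.883 to 0.929) and its 3 lowest total counts, and these day 0 libraries the 3 lowest factors of theirs (0.892 to 0.902, against 0.907 to 0.916). The part of scaling and depth in these orders was not tested. The neuron marker list did not share the order of CR34335 in CHX libraries, where replicates 2, 3 and 6 were highest. It had the same highest and lowest replicates as CR42862 with CHX (2 and 5) and with vehicle (5 and 3). At day 0 both were lowest in replicate 4, and the list was highest in replicate 2 and CR42862 in replicate 5. The neuron list was not alone in this: with vehicle the eye list also had its highest and lowest values in replicates 5 and 3. The eye and muscle lists were likewise lowest in CHX replicate 5, but at day 0 they were lowest in replicate 6. The part of cell makeup in these orders was not tested. These orders were noticed in the values, and no test was made of them.

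**Figure D5:**
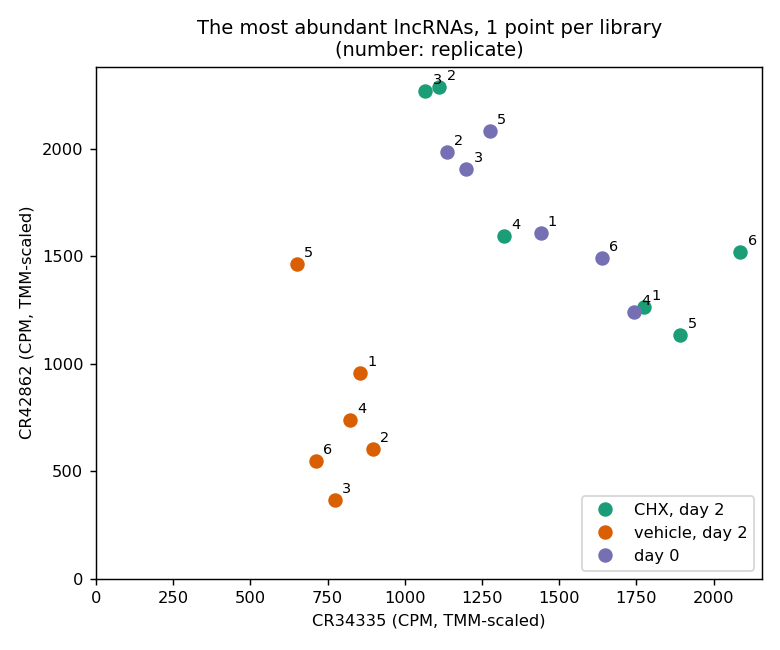
CR42862 against CR34335 in CPM, with 1 point for each CHX, vehicle and day 0 library and its replicate number. Among CHX and day 0 libraries, those with 1439.94 CPM or more for CR34335 have at most 1607 CPM for CR42862, and vehicle libraries lie at 896 CPM or less for CR34335.

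At the edge of the rule, the last members were CR43650, CR42491 and CR45018 with 6676, 5461 and 5201 summed counts, and the first rows outside were CR43857, CR44042 and CR44779 with 4997, 4777 and 4667. CR43857 had 14.5, 24.4 and 38.1 CPM in vehicle flies and 0.853, 1.31 and 1.497 CPM in day 0 flies. CR44042 had 1.57, 3.96 and 4.82 CPM in vehicle flies and 10.8, 11.6 and 13.04 CPM in day 0 flies. The dosage compensation RNAs that the rule sets aside were scarce, with 1351 summed counts for roX1 and 89 for roX2.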

How the data were processed

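Whole-fly RNA of 18 libraries was analyzed, in 3 groups taken from their labels. The authors deposited whole-number counts per feature, not normalized, and 0 columns were left unused. The submitters' notes name STAR 2.7.10a, HTSeq 0.12.3, bcl2fastq 2.18.0.12 and build BDGP6, without settings. Rows that name no feature held 8.46% to 11.6% of each column and were left out. Names came from Ensembl release 115, with 23366 identifiers matched. No sequences were analyzed here.

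Counts were fitted in R 4.3.3 with edgeR 4.0.16: filterByExpr, TMM factors, robust quasi-likelihood over all libraries with a term for name series, and Benjamini-Hochberg adjustment. Each standard error is |log2 fold change| divided by the root of F. The interaction with name series was tested alike. The procedure was tested on simulated data. Alternatives (DESeq2 1.42.0, limma 3.58.1, scaling, filters, rules, libraries left out) are given at the end. Named lncRNAs are, per comparison, the 8 highest and 8 lowest that passed, the 10 most abundant, those without a CR number, those at the threshold and those that differed between name series. Members, lists and tests were chosen with earlier results of these data known. Counts of any 2 libraries of a group differed beyond sampling noise (chi-square per degree of freedom at least 11.3). Figures used matplotlib 3.10.9.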

Additional observations from a re-analysis of the deposited data

Results flagged for a closer look

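A single library stood apart from the other 5 of its group in 4 of 72 checks of a lncRNA in a group, where chance gives about 1 in 20. CR32368 had 8.78 CPM in day 0 replicate 4, against 0.926 to 2.90 CPM in the other day 0 libraries. CR43837 had 2.81 CPM in day 0 replicate 6 and 1.98 to 2.25 CPM in the others. CR44754 was low in CHX replicate 1 (12.7 CPM, against 20.3 to 23.6 CPM) and in day 0 replicate 1 (13.8 CPM, against 17.97 to 20.5 CPM), the day 0 library that also held testis markers.

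The difference between groups itself differed between the name series in 4 lncRNAs, given here as the log2 fold change of the unhyphenated minus that of the hyphenated series. For vehicle against day 0 it was 3.16 for CR44138, 2.11 for CR44756, 0.79 for Hsromega and -1.03 for CR42491. For CHX against vehicle it was -3.88 for CR44138, -1.84 for CR44756 and 1.06 for CR42491. Both sets rest on the same vehicle libraries.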

How the results depend on the processing

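For the 2 comparisons with vehicle, counts of lncRNAs that passed stayed within 1.5 times of those given under every scaling, test and model tried, except with the conditions on size and on summed counts below, and leaving out any 1 library gave 23 again in both (7 and 16 by direction), and 1 for CHX against day 0. Asking also for a log2 fold change beyond 1 left 14 for vehicle against day 0 (4 higher, 10 lower). Of all 11051 features, 2413 were higher and 3279 lower under the same condition. A minimum sum of 2500 counts gave 35 in each comparison with vehicle, with 17 higher in vehicle flies against day 0 and 17 lower in CHX flies, and 2 for CHX against day 0. A minimum of 10000 gave 11 for vehicle against day 0 (3 higher, 8 lower), 11 for CHX against vehicle (8 higher, 3 lower) and 0 for CHX against day 0. Summing over the 12 CHX and day 0 libraries or over the 6 vehicle libraries, chosen after seeing the data, gave 3 or 16 higher and 17 or 9 lower for vehicle against day 0, 17 or 9 higher and 3 or 16 lower for CHX against vehicle, and 0 or 2 for CHX against day 0. The last comparison gave 0 in each name series alone and with limma-voom.

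CR45018 changed sign for vehicle against day 0 (RLE factors -0.0136, upper quartile factors -0.17, at least 10 counts in every library -0.061, replicate block -0.0208, hyphenated series -0.0915, DESeq2 -0.0137, limma-voom -0.0215, only the 2 groups -0.0292, 1 library left out -0.14 to 0.16) and for CHX against vehicle (library sizes -0.48, adjusted p = 0.0222, 1 library left out -0.046 to 0.24). CR44417 was at -0.0196 for CHX against vehicle with library sizes, and CR44138 at -0.14 for CHX against day 0 in the unhyphenated series. Their cause was not tested. Without TMM factors 63.5% of all calls were higher for vehicle against day 0 and 36.0% for CHX against vehicle, beside 50.4% and 50.4% with them. Upper quartile factors gave 2 differences between name series for vehicle against day 0, and leaving out 1 library gave 2 to 4 there and 1 to 8 for CHX against vehicle. Without CHX replicate 1 there were 8, without CHX replicate 3, CHX replicate 5 or vehicle replicate 2 there was 1 for CHX against vehicle, and without vehicle replicate 2 or day 0 replicate 4 there were 2 for vehicle against day 0.

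Replicate numbers did not pair the libraries: 6 of 18 same-numbered pairs had a correlation of deviations over 0.1 (range -0.29 to 0.54), and 3 correlated best with their own number. With the replicate block 23, 23 and 1 lncRNAs passed.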
